A study of Saccharomyces cerevisiae with 10 samples.

Results

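Box C/D snoRNAs of *Saccharomyces cerevisiae* were examined, taken as the rows of the count table whose own identifier is a box C/D snoRNA. Of 40 box C/D genes, 32 had such a row, out of 10431 rows in all. The rule used names only and no measured value. One further gene, snR57, appeared only as a later name in the snR55 row, and snR60 only in a row led by a protein-coding gene. The other 6 (snR17a and snR17b, which encode U3, and snR53, snR58, snR61 and snR74) had no row under these names and were not analysed. The snR55 row also named snR57, the snR51 row also named snR70, and the snR73 row also named an adjacent reading frame, so these 3 rows cannot be given to 1 gene alone. A second row shared by snR47 and a protein-coding gene was left out by the rule.

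Polyadenylated 3′ ends (QuantSeq 3′ tags primed with oligo-dT) were counted in total RNA from 10 libraries, 2 independent biological replicates of each of 5 strains grown in YPD at 30 °C to an OD600 of about 0.8. The *rpb1-84 rrp6∆* strain (YFN545, the double mutant below) carried *rrp6∆::KanMX4* and the *rpb1-84* allele on pYEB220-84, and *rrp6∆* (YFN543) carried *rrp6∆::KanMX4* with wild-type *RPB1* on pYEB220. The *rpb1-84* strain (YFN519) carried pYEB220-84 and a tagged *RPB4::TAP::TRP1*, which none of the others had. All of these and the WT (YFN116, with pYEB220) were MATα, with his3-∆200, trp1-∆63, ura3-52, a mutant leu2 and the chromosomal *rpb1-∆187::HIS3*, so their *RPB1* came from a 2µm *LEU2* plasmid. The fifth strain, *rpb4∆* (Y01285), was labelled MATa his3-∆1 leu2-∆0 met15-∆0 ura3-∆0 *rpb4∆::kanMX4* and has another background with no matched WT here. The study asked whether the assembly of RNA pol II, which *rpb1-84* disturbs at the foot domain of Rpb1, affects noncoding RNA levels, and *RRP6* was deleted to ask whether such an effect depends on the nuclear exosome.

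Box C/D snoRNAs are short nucleolar RNAs that bind the methyltransferase Nop1 together with Nop56, Nop58 and Snu13, and most of them base-pair with ribosomal RNA to direct ribose methylation at the base that lies a fixed distance upstream of box D. In yeast most are transcribed by RNA pol II from their own promoters, singly or as a cluster on 1 precursor, and the Nrd1-Nab3-Sen1 complex ends most of these transcripts. Rnt1 cuts many of the precursors, and the nuclear exosome with its Rrp6 subunit trims their 3′ ends, which can carry short A tails added by the TRAMP complex. A mature snoRNA has no poly(A) tail, so an oligo-dT library sees mainly tailed or A-rich forms, and the counts do not separate mature from 3′-extended RNA.

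The 32 rows hold 17 guides for 25S rRNA, 7 for 18S rRNA, 4 for both, a pair of guides for 18S cytosine acetylation by Kre33 (snR4 and snR45), and a pair placed here under pre-rRNA processing (snR128, which is U14, and snR190). The annotation ties only snR128 of this pair to rRNA cleavage, and also lists an 18S methylation position for it. For snR190 it gives a predicted 25S methylation position, not shown to be active. Neither is counted among the methylation guides above. By the annotation 13 of them lie in clusters and 19 are single genes. The sequences below, from the RefSeq R64 genome, are of the members on which the comparisons turn: the first 4 had the largest *rrp6∆* to WT ratio, snR66 and snR76 fell most in the double mutant relative to *rrp6∆*, snR4 was called in opposite directions in different comparisons, and snR47, snR69 and snR190 were not called in *rrp6∆*. Capitals mark box C (TGATGA) where it is exact, the stretch complementary to ribosomal RNA around the listed position where one was found, and box D (CTGA).
snR73: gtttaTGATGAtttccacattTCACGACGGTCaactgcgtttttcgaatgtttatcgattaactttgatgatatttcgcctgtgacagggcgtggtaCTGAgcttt
snR64: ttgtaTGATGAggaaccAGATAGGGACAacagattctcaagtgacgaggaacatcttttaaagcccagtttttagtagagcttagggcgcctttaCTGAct
snR128: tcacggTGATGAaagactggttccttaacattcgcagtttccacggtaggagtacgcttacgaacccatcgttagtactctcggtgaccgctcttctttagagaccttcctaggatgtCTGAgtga
snR13: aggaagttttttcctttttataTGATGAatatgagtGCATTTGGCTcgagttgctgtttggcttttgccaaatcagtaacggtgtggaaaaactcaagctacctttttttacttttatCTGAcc
snR66: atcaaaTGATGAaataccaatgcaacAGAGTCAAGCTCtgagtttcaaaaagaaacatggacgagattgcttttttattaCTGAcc
snR76: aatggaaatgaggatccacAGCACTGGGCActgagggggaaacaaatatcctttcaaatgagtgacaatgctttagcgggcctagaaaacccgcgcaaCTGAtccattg
snR4: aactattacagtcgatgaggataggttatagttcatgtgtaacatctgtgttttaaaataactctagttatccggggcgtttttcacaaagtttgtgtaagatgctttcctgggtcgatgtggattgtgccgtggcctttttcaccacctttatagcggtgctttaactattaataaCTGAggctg
snR47: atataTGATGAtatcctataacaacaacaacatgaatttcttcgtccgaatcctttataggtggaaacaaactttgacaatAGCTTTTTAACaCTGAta
snR69: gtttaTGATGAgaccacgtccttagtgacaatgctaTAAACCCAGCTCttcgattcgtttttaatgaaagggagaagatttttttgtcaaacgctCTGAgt
snR190: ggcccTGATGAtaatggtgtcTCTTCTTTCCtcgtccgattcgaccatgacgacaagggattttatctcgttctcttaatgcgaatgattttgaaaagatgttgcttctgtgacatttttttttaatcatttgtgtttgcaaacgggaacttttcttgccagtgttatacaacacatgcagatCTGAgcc

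These genes lie at chrXIII:298307-298412 (+) for snR73, chrXI:38811-38911 (+) for snR64, chrX:139566-139691 (-) for snR128 and chrIV:1402919-1403042 (+) for snR13. snR66 lies at chrXIV:586090-586175 (+), snR76 at chrXIII:297725-297833 (+), snR4 at chrV:424698-424883 (+), snR47 at chrIV:541602-541700 (-), snR69 at chrXI:364776-364876 (+) and snR190 at chrX:139761-139950 (-). The annotation gives no host gene and no antisense gene for any of the 32. The capitals in snR73 pair over 11 bases around position 2959 of 25S rRNA, those in snR64 over 11 bases around position 2337, those in snR13 over 10 bases around position 2280, those in snR66 over 12 bases around position 2417, and those in snR76 over 11 bases around position 2197. snR69 pairs over 12 bases around 25S position 2948, snR190 over 10 bases around 25S position 2395, and snR47 over 11 bases around 18S position 619.

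All 32 genes were 82 to 255 bases long (median 100). Box C was exact within the first 30 bases in 27 of them (84.4%) and box D stood within the last 30 bases in 31 (96.9%). Of the 24 H/ACA snoRNA genes with a row, which guide pseudouridylation, 1 (4.17%) had the box C letters and 2 (8.33%) the box D letters in the same windows, and the shares over 5241 protein-coding genes (ORFs) were 1.55% and 13.0%. Among the 30 genes with a listed methylation position, 25 had it inside a complement of 9 to 16 bases, and in 18 of those CTGA began 5 bases after the paired base. The letters thus match the class the names give.

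Libraries held 5487358 and 4300462 counts in the double mutant, 5601935 and 5586072 in *rrp6∆*, 3574066 and 7268211 in *rpb1-84*, 3165891 and 2727771 in WT, and 1931628 and 1415496 in *rpb4∆*. Over the 32 rows the median count was 2475.5 and 1819.5 in the double mutant, 5134 and 4827.5 in *rrp6∆*, 73 and 138.5 in *rpb1-84*, 84.5 and 48 in WT, and 22.5 and 16 in *rpb4∆*, so precision is lower in the strains with *RRP6* by their labels and lowest in *rpb4∆*. The lowest member count was 19 or more in every library that lacked *RRP6* by its label, against 2 in *rpb1-84*, 6 in WT and 1 in *rpb4∆*. The *RRP6* row had 52.8 and 40.9 CPM (counts scaled to a fixed library total) in the double mutant and 102 and 98.1 CPM in *rrp6∆*, against 76.7 and 81.3 CPM in *rpb1-84* and 73.0 and 62.7 CPM in WT. It was thus not lower in the *rrp6∆* single mutant than in WT. In the double mutant it was lower than in WT, at a fitted log2 fold change of -0.70 ± 0.127 (SE, derived from the edgeR test statistic). The position of the tags within the row is not in the table, so tags from outside the deleted part could not be told apart and the row does not check the deletion. All directions below that involve *rrp6∆* or the double mutant therefore rest on the labels. *RPB4* had 3.6 and 2.8 CPM in *rpb4∆*, 9.2 and 8.1 CPM in *rpb1-84*, where the gene is tagged, and 191 and 186 CPM in WT. In the libraries labelled *rpb4∆* and MATa, the α-specific receptor gene *STE3* had 142 and 106 counts and the a-specific *STE2* had 3 and 1. The other α-specific genes looked at, *MF(ALPHA)1* (1 and 1) and *MF(ALPHA)2* (0 and 0), were near 0 counts. So were the a-specific *MFA1* (1 and 0), *MFA2* (1 and 1) and *BAR1* (2 and 2). Only *STE3* thus goes against the mating type on the label, and these counts do not settle it.

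The 32 rows together took 3.78% and 3.77% of all counts in the libraries labelled *rrp6∆* (3.77% ± 0.0105, SD, n = 2), against 0.120% and 0.0934% in WT (0.107% ± 0.0190). The share was 2.06% and 1.95% in the double mutant (2.00% ± 0.0755), 0.125% and 0.115% in *rpb1-84* (0.120% ± 0.00697) and 0.0521% and 0.0591% in *rpb4∆* (0.0556% ± 0.00490). No *rrp6∆* or double mutant library overlapped any other strain. The ratio of the mean shares was 35.3 for *rrp6∆* over WT, 18.7 for the double mutant over WT, 16.7 for the double mutant over *rpb1-84*, 0.531 for the double mutant over *rrp6∆* and 1.12 for *rpb1-84* over WT. By exact permutation (two-sided) the first 4 ratios gave p = 0.333, the smallest that 2 against 2 libraries allow, and the last gave 0.667. A share of bulk counts does not tell fewer cells with a transcript from less of it per cell.

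Deletion of *RRP6* alone, by the labels, went with higher counts of nearly every box C/D snoRNA. In the edgeR fit, 29 of the 32 rows were called higher in *rrp6∆* than in WT (absolute log2 fold change above 1 and adjusted p below 0.1) and 0 were called lower, where 32.2% of all 9197 features tested were called higher and 6.75% lower. Among ORFs, 4.17% were called higher and 11.5% lower. The median log2 fold change over the 32 rows was 4.998, a 32.0-fold ratio, beside a median of -0.011 over all features and -0.48 over ORFs. Both *rrp6∆* libraries stood above both WT libraries in 30 rows and below them in 1, where 43.2% and 42.5% of all features did so. H/ACA snoRNAs had 22 of 23 tested rows called higher with a median of 3.75, so most rows of the other guide class were called higher too. Scaling on ORFs alone moved the all-feature median up by that ORF offset, to give a box C/D median of 5.48.

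The largest ratio was that of snR73, a 25S guide in the snR78 to snR72 cluster. It had 1858 and 2179 normalised CPM (CPM scaled by the trimmed mean of M values, TMM, over 8 libraries) in *rrp6∆*, against 13.8 and 4.27 in WT, a log2 fold change of 7.75 ± 0.176 (SE) or 216-fold with an edgeR adjusted p of 2.38e-29. snR64, also a 25S guide, had 982 and 967 normalised CPM in *rrp6∆*, against 11.1 and 4.27 in WT (log2 fold change 6.94 ± 0.162, edgeR adjusted p = 3.59e-29). snR128, the essential U14 snoRNA needed for early cleavage of the rRNA precursor, had the most counts of any member over both *rrp6∆* libraries, although snR77 had more in replicate 2 (25264 against 23975). Its normalised CPM were 5006 and 3726 in *rrp6∆*, against 62.5 and 13.2 in WT (log2 fold change 6.80 ± 0.234, edgeR adjusted p = 2.65e-24). The 25S guides snR13 and snR48 and the 18S guide snR79 followed, at 108-fold, 105-fold and 102-fold. The WT libraries differed widely from each other in 4 of these rows, with 186 and 34 counts for snR128, 61 and 8 for snR48, 41 and 11 for snR73 and 33 and 11 for snR64. For snR13 they were closer, with 23 and 15 counts, and its value stayed within 6.57 to 6.98 as each library was left out. For snR79 they held only 14 and 6 counts, and its value ran from 6.28 to 7.29. Without WT replicate 1 the log2 fold changes were 8.87 for snR73, 7.82 for snR64, 8.36 for snR128 and 8.69 for snR48, and without WT replicate 2 they were 7.19, 6.45, 6.12 and 5.98, so the size and order of these 4 depend on 1 WT library while their direction does not.

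The rows that were not called had small differences. snR47, which guides methylation in both subunits, had 7.78 and 6.37 normalised CPM in *rrp6∆*, against 7.39 and 13.2 in WT, and the strains overlapped (log2 fold change -0.51 ± 0.277, edgeR adjusted p = 0.0956). The left-out row that names *YDR042C* and snR47 had 5564 and 5128 counts in *rrp6∆*, against 227 and 184 in WT (log2 fold change 3.46 ± 0.104). Tags of the 2 genes in that row cannot be told apart, so the own row may not hold all snR47 tags. snR69, a 25S guide, had 69.6 and 54.9 in *rrp6∆*, against 78.9 and 73.8 in WT, with a log2 fold change of -0.30 ± 0.119 (edgeR adjusted p = 0.0254). It was the only row with both *rrp6∆* libraries below both WT libraries. snR190, which is transcribed with snR128, had 44.8 and 40.2 in *rrp6∆*, against 30.6 and 24.5 in WT, with a log2 fold change of 0.62 ± 0.156 (edgeR adjusted p = 0.000652). All 3 had an adjusted p below 0.1 and a change under the fold threshold, and snR190 passed that threshold (1.10) when libraries were scaled on ORFs alone. The next lowest, snR51, which guides both rRNAs, still had 561 and 667 normalised CPM in *rrp6∆*, against 193 and 169 in WT (log2 fold change 1.76 ± 0.101, edgeR adjusted p = 2.72e-17).

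By role, 16 of 17 guides for 25S rRNA were called higher in *rrp6∆* than in WT (median log2 fold change 5.24), all 7 guides for 18S rRNA (median 4.98) and 3 of 4 guides for both (median 2.78). Both acetylation guides were called higher, snR45 at 548 and 458 normalised CPM in *rrp6∆* against 53.1 and 52.0 in WT, and snR4 at 35.3 and 35.6 in *rrp6∆* against 6.38 and 6.99 in WT. In the processing pair snR128 was called and its upstream neighbour snR190 was not, with log2 fold changes of 6.80 and 0.62 on 1 shared precursor.

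**Figure D1:**
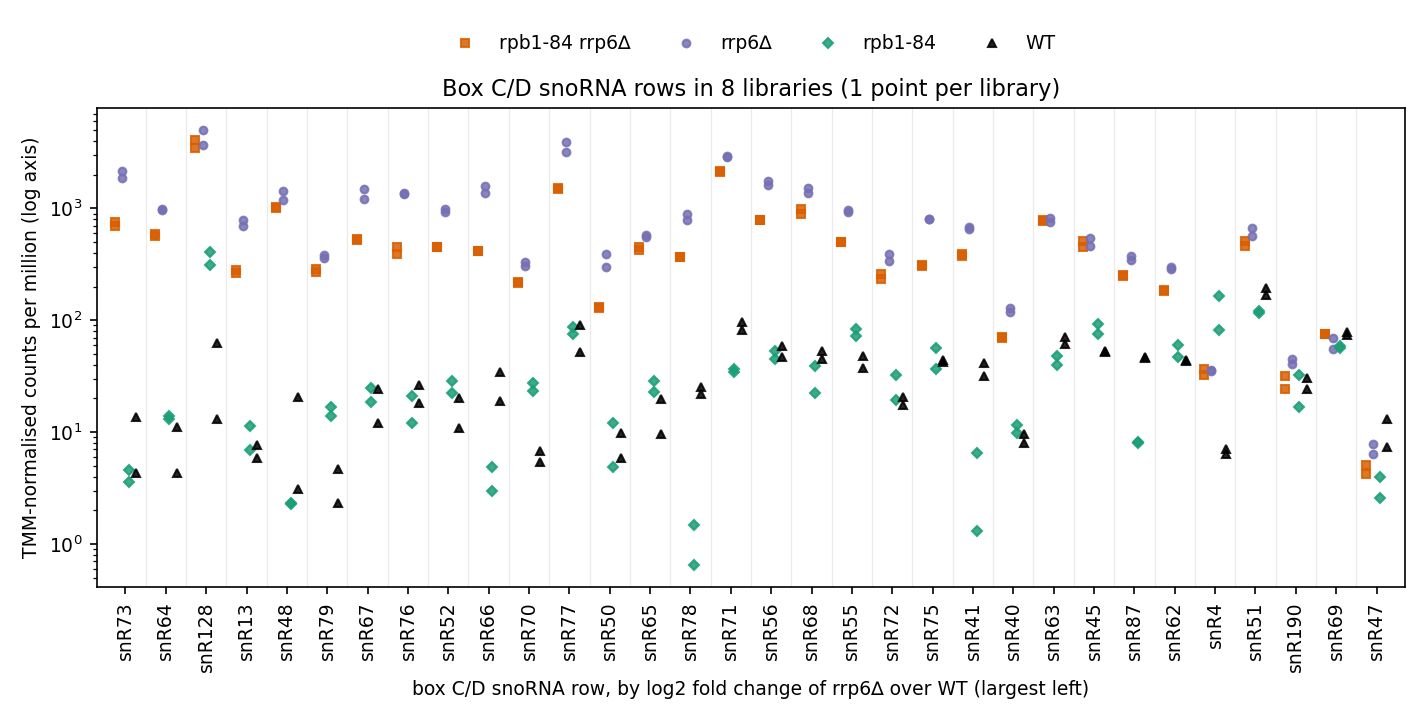
TMM-normalised CPM (log axis) of each of the 32 box C/D snoRNA rows, ordered by the log2 fold change of *rrp6∆* over WT with the largest at the left. Each point is 1 library of the double mutant, *rrp6∆*, *rpb1-84* or WT (2 each), with no error bars, and the *rrp6∆* points stand above the WT points in 30 rows. At the right, snR190 and snR69 have all strains close together. The last row, snR47, is lower in *rpb1-84* (2.60 and 3.94) than in WT (7.39 and 13.2).

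The double mutant gave the same count of rows above WT as *rrp6∆* did, at lower levels. In the edgeR fit 29 of the 32 rows were called higher in the double mutant than in WT and 1 was called lower, where 28.0% of all features were called higher and 6.4% lower (4.25% and 9.21% of ORFs). Both double mutant libraries stood above both WT libraries in 29 rows and below them in 1, where 42.8% and 39.2% of all features did so. The median log2 fold change was 3.94 beside 0.029 over all features and -0.34 over ORFs. H/ACA rows were close to it, with 21 of 23 called higher and a median of 3.86. This comparison shares its WT libraries with that of *rrp6∆*. The largest ratios were those of snR128, at 4071 and 3475 normalised CPM in the double mutant against 62.5 and 13.2 in WT (log2 fold change 6.59 ± 0.233, edgeR adjusted p = 8.51e-24), and of snR48, at 1012 and 1030.4 in the double mutant against 20.5 and 3.11 in WT (log2 fold change 6.36 ± 0.206, edgeR adjusted p = 5.09e-25). snR73 followed with 761 and 700.2 in the double mutant, against 13.8 and 4.27 in WT (log2 fold change 6.29 ± 0.180, edgeR adjusted p = 1.54e-26). These are again rows in which the WT libraries lie far apart: without WT replicate 1 the log2 fold changes were 8.16 for snR128, 8.35 for snR48 and 7.41 for snR73, and without WT replicate 2 they were 5.92, 5.64 and 5.73.

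The row called lower was snR47, with 5.09 and 4.20 normalised CPM in the double mutant, against 7.39 and 13.2 in WT (log2 fold change -1.10 ± 0.310, edgeR adjusted p = 0.00233). Its counts are few, and the call was lost when libraries were scaled on ORFs alone (-0.76) or on total counts (-0.93), without WT replicate 2 (-0.65) and without double mutant replicate 2 (-0.97). The left-out row that names *YDR042C* and snR47 was called higher in the double mutant than in WT (log2 fold change 2.94 ± 0.104). snR69 had 75.5 and 75.6 in the double mutant, against 78.9 and 73.8 in WT, and snR190 had 31.9 and 24.3 against 30.6 and 24.5. Neither was called, with log2 fold changes of -0.018 ± 0.119 (edgeR adjusted p = 0.902) and 0.037 ± 0.169 (edgeR adjusted p = 0.860). For these 2 rows the libraries of the strains overlapped.

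Set against *rrp6∆* itself, the double mutant had lower counts of most box C/D snoRNAs, and 11 of 32 rows fell by more than 2-fold. In the edgeR fit 11 rows (34.4%) were called lower and 0 higher, where 6.49% of all features were called lower and 1.96% higher, and 1.95% of ORFs were called lower and 2.11% higher. The fitted value was below 0 in 31 rows, where it was in 4747 of all 9197 features tested. The adjusted p was below 0.1 in 28 rows, where it was in 4603 of all features. The median log2 fold change was -0.65 (ratio 0.638), beside -0.021 over all features and 0.14 over ORFs. Both double mutant libraries stood below both *rrp6∆* libraries in 27 rows and above them in 1, where 36.8% and 34.5% of all features did so. No library of either strain decided the count: leaving out each of the 4 in turn, and each WT library, gave 11 lower and 0 higher every time.

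The row with the greatest fall was snR66, a 25S guide that is a single gene, at 415 and 412 normalised CPM in the double mutant, against 1384 and 1594 in *rrp6∆*. Its log2 fold change was -1.85 ± 0.102, 3.60-fold lower in the double mutant (edgeR adjusted p = 1.79e-16). snR76, a 25S guide in the snR78 to snR72 cluster, had 453 and 388 in the double mutant, against 1385 and 1334 in *rrp6∆* (log2 fold change -1.69 ± 0.0936, edgeR adjusted p = 1.79e-16). snR73 of the same cluster had 761 and 700.2 in the double mutant, against 1858 and 2179 in *rrp6∆* (log2 fold change -1.47 ± 0.106, edgeR adjusted p = 2.10e-13). In these 3 rows both strains were tight and far apart, while the double mutant still stood above WT.

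The other 8 rows called lower were 5 guides for 25S rRNA (snR13, snR50, snR67, snR75 and snR78), the 18S guides snR56 and snR77, and snR52, which guides both. snR13 had 281 and 264 normalised CPM in the double mutant, against 781 and 698 in *rrp6∆* (log2 fold change -1.44 ± 0.0888, edgeR adjusted p = 2.03e-15). snR50 had 130.3 and 128 in the double mutant, against 299 and 395 in *rrp6∆* (log2 fold change -1.43 ± 0.104, edgeR adjusted p = 2.48e-13). snR67 had 531 and 518 in the double mutant, against 1221 and 1479.6 in *rrp6∆* (log2 fold change -1.37 ± 0.103, edgeR adjusted p = 5.03e-13). The weakest of the calls were snR56, at 795 and 785 in the double mutant against 1627 and 1746 in *rrp6∆* (log2 fold change -1.09 ± 0.0878, edgeR adjusted p = 2.49e-12), and snR52, at 450.3 and 450.2 against 921 and 979.8 (log2 fold change -1.08 ± 0.0930, edgeR adjusted p = 1.35e-11). The snR55 row lay just short of the fold threshold at -0.92 ± 0.0868 and passed it (-1.06) under ORF or total-count scaling.

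At the other end, snR69 was the one row with a fitted value above 0, with 75.5 and 75.6 normalised CPM in the double mutant against 69.6 and 54.9 in *rrp6∆* (log2 fold change 0.28 ± 0.109, edgeR adjusted p = 0.0371). snR63, a 25S guide, had 765 and 795 in the double mutant, against 756 and 821 in *rrp6∆* (log2 fold change -0.016 ± 0.0852, edgeR adjusted p = 0.894). snR4 had 32.6 and 36.9 in the double mutant, against 35.3 and 35.6 in *rrp6∆* (log2 fold change -0.037 ± 0.127, edgeR adjusted p = 0.836). The rows of snR63, snR4 and the other acetylation guide, snR45 (-0.058 ± 0.0911, edgeR adjusted p = 0.638), therefore showed no difference larger than the spread between libraries, although each had risen in *rrp6∆*. For snR128, whose *rrp6∆* libraries differed from each other by more than its strains did, the log2 fold change was -0.21 ± 0.163 (edgeR adjusted p = 0.304).

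By role, 8 of 17 guides for 25S rRNA were called lower in the double mutant than in *rrp6∆* (median log2 fold change -0.75), 2 of 7 guides for 18S (median -0.79) and 1 of 4 guides for both (median -0.70). None of the acetylation or processing pairs was. H/ACA rows in the same comparison had 0 of 23 called at these thresholds in the edgeR fit, 15 with an adjusted p below 0.1, and fitted values from -0.90 (snR49) to 0.85 (snR84), 11 above 0 and 12 below. Their median was -0.017. The summed counts of box C/D rows divided by those of H/ACA rows were 0.944 and 0.941 in the double mutant, against 1.60 and 1.74 in *rrp6∆*, a ratio of 0.564 that does not depend on library scaling. This ratio was computed after the values of both classes had been seen, and an exact test of 2 against 2 libraries gives it p = 0.333, the smallest possible. The 4 spliceosomal snRNA rows had a median of -0.73 with 1 called lower.

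**Figure D2:**
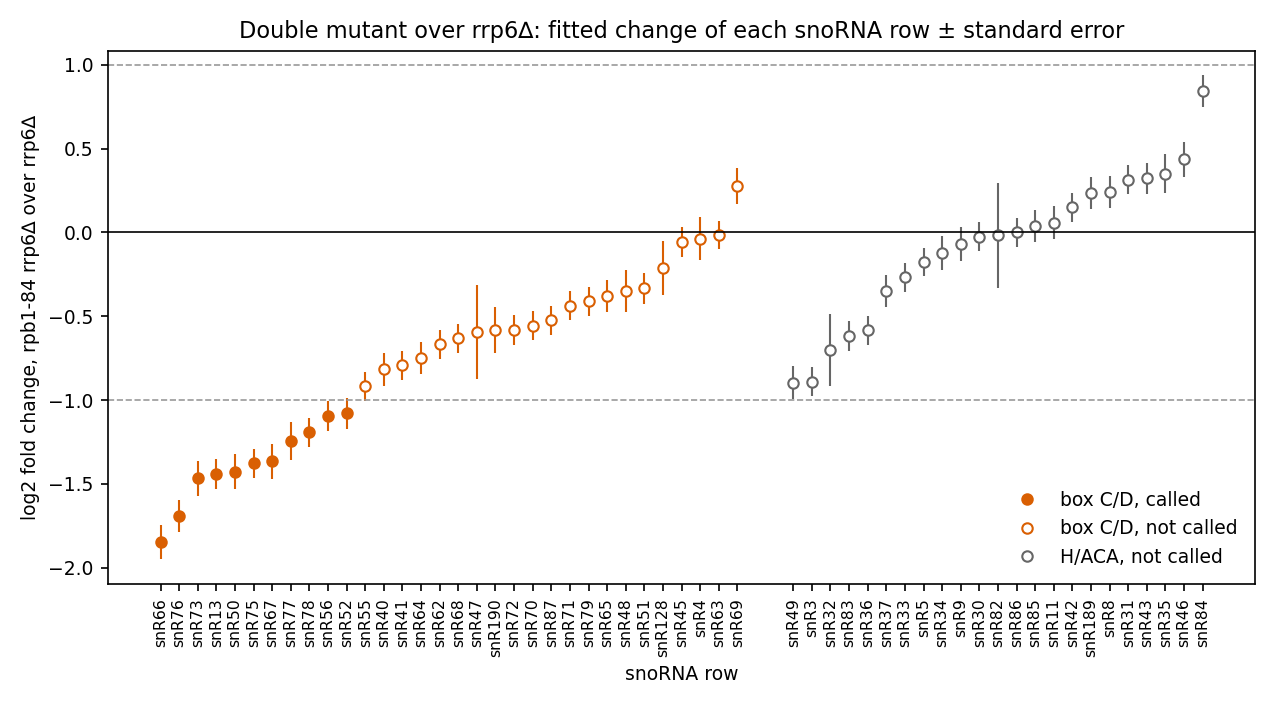
Fitted log2 fold change of the double mutant over *rrp6∆* for each of the 32 box C/D rows (left) and the 23 tested H/ACA rows (right). Bars are 1 standard error derived from the edgeR test statistic. Filled points are called and dashed lines mark the fold threshold. Box C/D rows run from -1.85 (snR66) to 0.28 (snR69) with 11 called lower, and H/ACA rows from -0.90 to 0.85 with 0 called.

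The longest cluster runs snR78, snR77, snR76, snR75, snR74, snR73, snR72 in the order of transcription on chromosome XIII, and 6 of its 7 genes have rows. Members of a cluster share a precursor and are not independent. In *rrp6∆* all 6 were called higher than in WT, from a log2 fold change of 4.22 (snR75) to 7.75 (snR73), and the levels along the cluster were uneven (3′ tags are not divided by gene length here). snR77, an 18S guide and the second gene, had 3178 and 3926 normalised CPM in *rrp6∆*, against 90.0 and 51.7 in WT, while snR72, the last and a 25S guide, had 341 and 391 in *rrp6∆*, against 20.5 and 17.5 in WT. In the double mutant 5 of the 6 were called lower than in *rrp6∆*, at -1.19 for snR78, -1.25 for snR77, -1.69 for snR76, -1.38 for snR75 and -1.47 for snR73. The last gene, snR72, was not called, at 231 and 259 in the double mutant against 341 and 391 in *rrp6∆* (log2 fold change -0.58 ± 0.0901, edgeR adjusted p = 2.76e-06). Its difference from the other 5 was not tested.

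The other clusters had few rows. In snR41-snR70-snR51, where snR41 and snR70 guide 18S and snR51 both rRNAs, the double mutant over *rrp6∆* gave -0.79, -0.56 and -0.33, with 0 called. In snR190-snR128 the values were -0.58 and -0.21. snR55 and snR67, the only members with own rows in their clusters, had -0.92 and -1.37. Over all clusters 6 of 13 rows were called lower (median -0.92), against 5 of 19 single genes (median -0.59). Of those 6 rows, all but snR67 belong to the snR78 to snR72 cluster and are not independent. A difference between clustered and single genes was not tested.

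**Figure D3:**
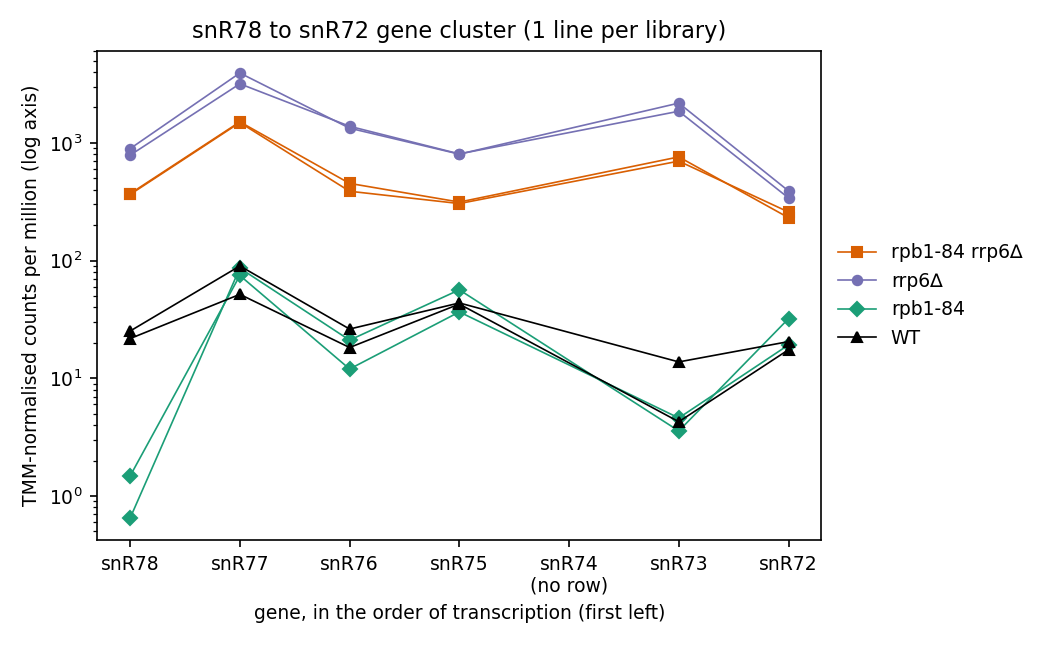
TMM-normalised CPM (log axis) along the snR78 to snR72 cluster in the order of transcription, with 1 line per library (2 each of the double mutant, *rrp6∆*, *rpb1-84* and WT) and a gap in the points at snR74, which has no row. The double mutant lines lie below the *rrp6∆* lines at every gene, and the *rpb1-84* lines dip at snR78 to 0.649 and 1.48.

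The same deletion in the *rpb1-84* background can be read from the double mutant against *rpb1-84*, but the *rpb1-84* strain carries the *RPB4* tag and its matched WT is not used here, so strain, tag and experiment cannot be told apart from the allele. In an edgeR fit over 8 libraries 28 of 32 rows were called higher in the double mutant than in *rpb1-84* and 1 lower, where 32.1% of 9264 features were called higher and 18.7% lower (10.3% and 28.2% of ORFs). Both double mutant libraries stood above both *rpb1-84* libraries in 30 rows and below them in 1, where 45.7% and 41.5% of all features did so. The median log2 fold change was 4.08, beside 0.086 over all features and -0.49 over ORFs. All 23 tested H/ACA rows were called higher too, with a median of 3.77. snR48 had 1012 and 1030.4 normalised CPM in the double mutant, against 2.27 and 2.30 in *rpb1-84* (log2 fold change 8.78 ± 0.255, edgeR adjusted p = 1.72e-26). snR78, a 25S guide, had 370.4 and 365 in the double mutant, against 0.649 and 1.48 in *rpb1-84* (log2 fold change 8.23 ± 0.202, edgeR adjusted p = 2.09e-28), and without *rpb1-84* replicate 1 or 2 it was 7.92 or 9.08. snR73 had 761 and 700.2 in the double mutant, against 3.57 and 4.60 in *rpb1-84* (log2 fold change 7.42 ± 0.195, edgeR adjusted p = 1.58e-27). These rows thus lay at the bottom of the *rpb1-84* range and well within the double mutant range.

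snR4 went the other way and was the only row called lower, at 32.6 and 36.9 normalised CPM in the double mutant against 81.7 and 165 in *rpb1-84* (log2 fold change -1.88 ± 0.173, edgeR adjusted p = 4.35e-12). Its *rpb1-84* libraries differed from each other, and without replicate 1 or 2 of that strain the value was -2.26 or -1.24. snR47, snR69 and snR190 were again not called, with log2 fold changes of 0.43 ± 0.360 (edgeR adjusted p = 0.270), 0.41 ± 0.121 (edgeR adjusted p = 0.00288) and 0.12 ± 0.186 (edgeR adjusted p = 0.570).

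With *RRP6* present, box C/D rows differed in both directions between *rpb1-84* and WT, as H/ACA rows and features at large also did. In the edgeR fit 4 rows were called higher in *rpb1-84* and 8 lower, where 16.4% of all features were called higher and 15.7% lower, and the median log2 fold change was 0.10. Both *rpb1-84* libraries stood above both WT libraries in 11 rows and below them in 11, where 39.9% and 35.2% of all features did so. Of 23 tested H/ACA rows, 3 (13.0%) were called higher and 5 (21.7%) lower. The box C/D rows called higher are 12.5% of their class and those called lower 25%, and among ORFs 18.7% were called higher and 14.1% lower. The rows called higher were snR4, at 81.7 and 165 normalised CPM in *rpb1-84* against 6.38 and 6.99 in WT (log2 fold change 4.25 ± 0.264, edgeR adjusted p = 3.27e-16), snR128, at 412 and 314 against 62.5 and 13.2 (log2 fold change 3.21 ± 0.241, edgeR adjusted p = 5.55e-14), and the 18S guides snR79 (2.05 ± 0.298) and snR70 (2.02 ± 0.232). In each of these 4 both *rpb1-84* libraries stood above both WT libraries. The value of snR128 was 4.78 without WT replicate 1 and 2.54 without WT replicate 2.

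The rows called lower in *rpb1-84* were snR78, at 0.649 and 1.48 normalised CPM in *rpb1-84* against 25.2 and 21.8 in WT (log2 fold change -4.27 ± 0.317, edgeR adjusted p = 4.08e-14), and the 18S guide snR41, at 6.49 and 1.31 against 41.3 and 31.5 (log2 fold change -3.55 ± 0.290, edgeR adjusted p = 4.60e-13). snR66 followed at 4.87 and 2.96 in *rpb1-84* against 34.6 and 19.0 in WT (log2 fold change -2.90 ± 0.281, edgeR adjusted p = 3.40e-11). The other 5 were snR87 (-2.52), which guides 18S, the 25S guides snR48 (-2.42), snR71 (-1.33) and snR73 (-1.13), and snR47 (-1.54). For snR48 and snR73 the call rests on WT replicate 1, without which the values were -0.42 (edgeR adjusted p = 0.610) and 0.0014. Adjacent genes of a cluster parted here, since snR77 had 86.3 and 74.7 in *rpb1-84*, both within the WT range of 51.7 to 90.0, while its upstream neighbour snR78 was nearly absent. Without *rpb1-84* replicate 1 or 2 the value of snR41 was -4.76 or -2.49, and without WT replicate 1 the counts of rows were 8 higher and 6 lower.

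The test of the difference between the backgrounds, the change from *rpb1-84* to the double mutant minus that from WT to *rrp6∆*, was called higher in 5 of 32 rows and lower in 15, where 13.0% and 16.0% of all features were. The median was -0.96, beside 5 of 23 H/ACA rows called higher and 3 lower. The most negative were snR4 (-4.29 ± 0.343, edgeR adjusted p = 9.12e-13), snR128 (-3.42 ± 0.301, edgeR adjusted p = 1.08e-11) and snR70 (-2.58 ± 0.249, edgeR adjusted p = 9.57e-11). The most positive were snR78 (3.08 ± 0.357, edgeR adjusted p = 6.42e-09), snR41 (2.76 ± 0.325, edgeR adjusted p = 8.43e-09) and snR48 (2.07 ± 0.488, edgeR adjusted p = 0.000657), the last of which was 0.086 without WT replicate 1. Leaving out 1 library also ended the call of snR66 (down to 0.53), snR50 (-0.73), snR65 (-0.78), snR76 (-0.79) and snR40 (-0.91). The *rpb1-84* and WT libraries enter this test directly.

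**Figure D4:**
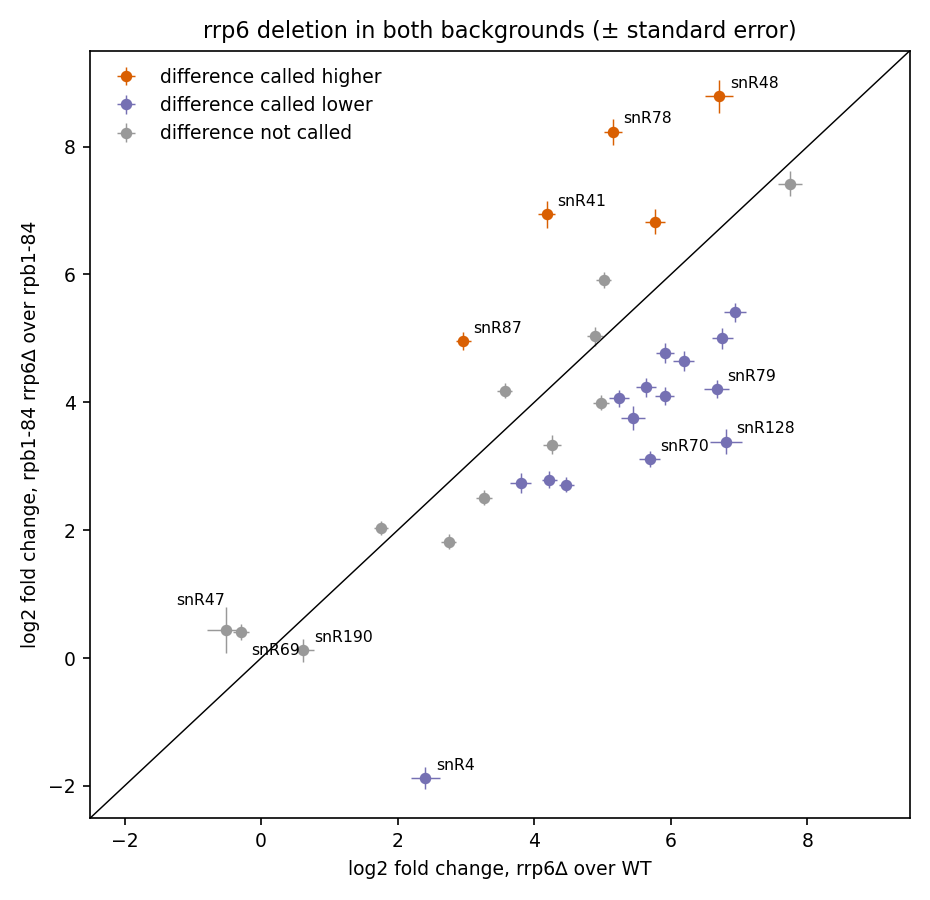
Log2 fold change of the double mutant over *rpb1-84* (vertical) against that of *rrp6∆* over WT (horizontal) for the 32 box C/D rows, with bars of 1 standard error and the line of equal change; colours give rows whose difference was called higher (5), lower (15) or not called (12). snR4 is the only row above 0 on the horizontal and below 0 on the vertical axis, at 2.41 and -1.88.

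In *rpb4∆* box C/D rows were few in counts and are given as levels only, in CPM of the library total. snR51 was the highest, at 91.6 and 111 CPM, and took 17.6% and 18.8% of the box C/D counts, and snR63 had 41.4 and 41.0 CPM. snR67, snR69 and snR75 had mean levels of 41.1, 40.7 and 38.2 CPM, which their replicate spreads (3.88, 6.35 and 3.08, SD, n = 2) do not separate from each other or from snR63. At the low end snR70 had 1.04 and 0.706 CPM from 3 counts in both libraries together. snR128 had 3.62 and 7.06 CPM in *rpb4∆*, among the lower rows of that strain. With another strain background and no matched control, no test was made.

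The genes of box C/D snoRNP assembly, termination, processing and decay were looked at in the same fits. Of 38 such genes, 36 had a row that was tested (*NOP58* had no row under that name). In *rrp6∆* over WT 2 were called higher and 2 lower, where 4.17% and 11.5% of ORFs were. They were *NRD1*, the RNA-binding subunit of the termination complex (log2 fold change 1.46 ± 0.0992), *TAH1*, an assembly co-chaperone gene (2.98 ± 0.533, from 36 and 41 counts in *rrp6∆* against 2 and 2 in WT), *MTR4*, the helicase that feeds the nuclear exosome (-1.11 ± 0.0960), and *PAP2*, the TRAMP poly(A) polymerase gene (-1.04 ± 0.108). The 3 core protein genes with a row were not called, at -0.93 for *NOP1*, -0.99 for *SNU13* and -0.45 for *NOP56*. In the double mutant over WT *TAH1* (2.18) and *NRD1* (1.31) were called higher and *PAP2* (-1.33) and *SYC1* (-1.21), which encodes a subunit of an mRNA and snoRNA 3′-end complex, lower, where 4.25% and 9.21% of ORFs were. Only *SYC1* was called between the double mutant and *rrp6∆* (-1.08 ± 0.134, edgeR adjusted p = 5.20e-08). In the double mutant over *rpb1-84* 7 of these 36 genes were called higher and 13 lower, where 10.3% and 28.2% of ORFs were, and in *rpb1-84* over WT 8 higher and 5 lower, where 18.7% and 14.1% of ORFs were.

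The boundaries of the rows are not in the table, so the next ORF on the same strand within 1000 bases was followed. There were 14 such ORFs, some of them shared by rows of the same cluster. In *rrp6∆* over WT 5 of these ORFs were called higher, where 4.17% of ORFs were, and 1 lower. *TRS31*, a transport-complex gene 280 bases after snR13, had 6003 and 6287 counts in *rrp6∆*, against 172 and 141 in WT (log2 fold change 4.06 ± 0.109, edgeR adjusted p = 1.52e-27), and 4806 and 3642 in the double mutant. *FLX1*, a mitochondrial carrier gene 149 bases after snR68, had 1978 and 1848 counts in *rrp6∆*, against 131 and 113 in WT (2.73 ± 0.112), and *SEN2*, a tRNA-splicing endonuclease gene 247 bases after snR79, had 700 and 646 against 117 and 108 (1.34 ± 0.118). *RGT1*, which encodes a glucose-responsive repressor, lies 729 bases after snR69 and shares its row with *YKL037W*, had 2101 and 1847 against 78 and 85 (3.35 ± 0.124), although snR69 itself was not called. The fifth row named snR47 together with *YDR042C* and is not independent of the snoRNA (3.46). *ASN1*, 717 bases after snR45, was called lower (-1.63 ± 0.0914). In the double mutant over WT 6 of these ORFs were called higher, the same 5 and *NVJ2*, 232 bases after snR51 (1.15 ± 0.105). Between the double mutant and *rrp6∆* 0 of the 14 were called at these thresholds.

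In the 150 bases after the annotated 3′ end, on the transcribed strand, GTAA or GTAG (Nrd1 motifs) stood in 23 of 32 box C/D genes (71.9%), in 79.2% of H/ACA genes and in 67.1% of ORFs. TCTT (a Nab3 motif) stood in 29 (90.6%), in 100% of H/ACA genes and in 68.4% of ORFs, and both were present in 22 (68.8%), 79.2% and 44.4%. Among the 22 box C/D genes that are single or last in a cluster, GTAA or GTAG stood in 86.4%, TCTT in 100% and both in 86.4%. GTAG can share its last letter with a GTAA, and a match describes letters and not a bound site.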

How the data were processed

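The 10 libraries were prepared by the authors as QuantSeq 3′ tags. After FastQC and adapter clipping (Fastx Clipper), the authors used Hisat2 for alignment to the R64 reference and featureCounts for raw counts per feature, and they tested these with DESeq2. The deposited counts carry no normalization. Strand setting and the treatment of overlapping features are not given in the sources used here.

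From these counts edgeR 4.0.16 (R 4.3.3, limma 3.58.1) was run with TMM, filterByExpr and quasi-likelihood tests on the whole table, over 6 libraries for the *rrp6∆* comparisons (9197 features tested) and over 8 for those with *rpb1-84* (9264 features). All 32 members passed the filter. A row was called where its log2 fold change lay beyond 1 in either direction with a Benjamini-Hochberg adjusted p below 0.1. Adjusted p-values rest on a spread estimated from 2 cultures per strain, pooled over all strains of the fit and drawn together across features. They do not measure the spread of the compared cultures alone. Each SE beside a log2 fold change was derived from the same test, as the absolute log2 fold change over the square root of its F statistic. It therefore rests on that pooled spread too, and can be narrower than the range over left-out libraries. Class shares were compared by exact permutation tests (scipy 1.17.1). DESeq2 1.42.0, other scalings, no filter, a replicate block and each library left out in turn were alternatives. The scripts were tested on simulated counts first. The members and lists were chosen with earlier results of these data known. Named in full were the 3 members with the highest and the 3 with the lowest log2 fold change in each comparison, and those whose call differed from most. Member sequences and positions came from the RefSeq R64 genome, with Python 3.11.15, pandas 2.3.3, numpy 2.4.6 and matplotlib 3.10.9.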

Additional observations from a re-analysis of the deposited data

Results flagged for a closer look

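The change that came with *rrp6∆* differed between the *rpb1-84* and WT backgrounds in 20 box C/D rows by the edgeR test of the difference over 8 libraries, 5 higher and 15 lower, where 13.0% of all features were called higher and 16.0% lower. The log2 differences below 0 were -4.29 for snR4, -3.42 for snR128, -2.58 for snR70, -2.46 for snR79, -1.81 for snR52, -1.76 for snR55, -1.75 for snR13, -1.70 for snR50, -1.54 for snR67, -1.53 for snR64, -1.43 for snR75, -1.40 for snR77, -1.18 for snR65, -1.15 for snR76 and -1.07 for snR40. Those above 0 were 3.08 for snR78, 2.76 for snR41, 2.07 for snR48, 2.00 for snR87 and 1.06 for snR66. The calls of snR48 and snR66 were lost with DESeq2 and without WT replicate 1 (0.086 and 0.53), and those of snR50, snR65, snR76 and snR40 were each lost when 1 or another library was left out. The tag and the experiment of the *rpb1-84* libraries cannot be told apart from the allele.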

How the results depend on the processing

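Of the values of single rows, 1311 kept their side of the threshold when a library was left out, 16 gained a call and 16 lost one. A called row turned its sign in 1 case (snR73 in *rpb1-84* over WT, from -1.69 without WT replicate 2 to 0.0014 without WT replicate 1). Changes of sign in rows called in neither fit count here as kept, such as snR63 in the double mutant over *rrp6∆* (-0.072 to 0.046). Under the other settings 1304 kept their side of the threshold, 3 gained a call and 4 lost one. TMM factors from ORFs only gave medians over the 32 rows of 5.48 for *rrp6∆* over WT, 4.28 for the double mutant over WT, -0.79 for the double mutant over *rrp6∆* and 4.57 for the double mutant over *rpb1-84*, and total counts gave 5.31 for *rrp6∆* over WT, -0.79 for the double mutant over *rrp6∆* and 4.41 for the double mutant over *rpb1-84*. For *rpb1-84* over WT these settings turned the median of 0.10 to -0.048 and -0.049, and leaving out WT replicate 2 to -0.18. Under both scalings 0 rows were called lower in the double mutant than in WT. DESeq2 called 3 rows higher in the test between backgrounds, with snR48 (adjusted p = 0.179) and snR66 (adjusted p = 0.102) lost.

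The share ratios with ORF counts as the denominator were 45.5 for *rrp6∆* over WT, 22.0 for the double mutant over WT and 0.484 for the double mutant over *rrp6∆*, and without snR128 they were 31.6, 15.5 and 0.491. Leaving out each library in turn gave medians of 4.83 to 5.15 for *rrp6∆* over WT, 3.73 to 4.24 for the double mutant over WT, -0.75 to -0.64 for the double mutant over *rrp6∆*, 3.95 to 4.13 for the double mutant over *rpb1-84*, -0.18 to 0.12 for *rpb1-84* over WT and -1.11 to -0.82 between backgrounds. Counts were 0 to 1 lower in the double mutant than in WT, 4 to 8 higher and 6 to 9 lower for *rpb1-84* over WT, and 4 to 6 higher and 13 to 17 lower between backgrounds, with the other counts unchanged.

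Same-numbered replicates did not deviate together (correlations from -0.031 to 0.031), which gave no sign that the numbers pair the samples. A low correlation cannot exclude a shared culture day or library preparation, so pairing was not settled. With the replicate block the counts higher and lower were 29 and 0 for *rrp6∆* over WT, 29 and 1 for the double mutant over WT, 0 and 11 for the double mutant over *rrp6∆*, 28 and 1 for the double mutant over *rpb1-84*, 4 and 8 for *rpb1-84* over WT and 5 and 15 between backgrounds, with medians of 4.999, 3.94, -0.65, 4.08, 0.11 and -0.95.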
